A study of Mus musculus with 10 samples.

Results

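Kdm1a and Kdm1b (also LSD1 and LSD2), Kdm5a and Kdm5b, and Kdm2a and Kdm2b were described here as a set of 6 genes whose products remove methyl groups from histone H3 at lysine 4 or bind unmethylated CpG. They were examined in the list of accessible sites found by ATAC-seq, an assay in which the transposase Tn5 cuts open chromatin and the cut fragments are sequenced. The titles of the libraries and the study's methods name this assay, whereas the extraction text in the labels describes formaldehyde cross-linking as for chromatin immunoprecipitation, a discrepancy that the list of positions cannot settle. The members were the sites that lay in the bodies of these genes or within 50 kb of them on mm10. The set held 127 of the 153924 sites of the list. Values given beside them for the list refer to the 153682 sites on chromosomes 1 to 19, X and Y.

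The cells were immortalized mouse embryo fibroblasts of the clone NG3, a line that is 1 clone. In all groups, both endogenous Ash2l alleles lacked exon 4, which had been deleted with a tamoxifen-inducible Cre-ER under a broadly active promoter. The cells instead expressed a lentiviral fusion of FKBP12 F36V, 2 HA tags and human ASH2L, a core subunit of the KMT2 complexes that methylate H3K4. The fusion is degraded upon addition of dTAG-13, a PROTAC that brings it to the ubiquitin ligase subunit Cereblon. Libraries were made from control cells, which the labels give as without dTAG and the methods as treated with the solvent ethanol (EtOH), and after 30 min, 4 h, 8 h or 24 h with dTAG-13, in 2 replicates for each of the 5 conditions, 10 in all. The list pools all of them and carries no value for a library or a group, so no time point was compared with another at these genes, and the results below have no replicate error. Sequencing depth cannot be read from it.

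Methylation of H3K4 is laid down by KMT2 and SETD1 complexes and is taken off by enzymes of the KDM5 and KDM1 families. KDM5 proteins use a JmjC domain to remove the trimethyl and dimethyl marks, which accumulate at active promoters. KDM1A and KDM1B are flavin-dependent amine oxidases that act on the dimethyl and monomethyl marks, KDM1A with the CoREST proteins and KDM1B with GLYR1. KDM2A and KDM2B, known mainly as demethylases of lysine 36, carry a JmjC domain and a CXXC zinc finger that binds unmethylated CpG, and KDM2B brings a variant Polycomb complex to CpG islands. Short forms of both Kdm2 genes are known that start inside the gene, lack the JmjC domain and keep the zinc finger.

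All 6 genes had an accessible site at their 5′ end, as had 12825 of the 21938 protein-coding genes. A site within 1 kb of any annotated start, here called a promoter site, was present in 70.8% of coding genes. In all 6 this site overlapped a CpG island. A promoter site did so in 62.8% of coding genes, that is in 13767 of the 15530 that had a promoter site. The Kdm2b site was the widest at 2564 bp, followed by Kdm2a at 2294 bp, Kdm1b at 2048 bp, Kdm1a at 1749 bp, Kdm5b at 1713 bp and Kdm5a at 1550 bp. Width here is the distance between the edges that the peak caller gave and not a measure of how open the site was. Among the 15530 coding genes with a promoter site, the median of the widest one was 1412 bp (quartiles 1107 and 1753 bp). The Kdm2b value exceeded 96.9% of these genes and that of Kdm2a 93.5%, compared with 87.5% for Kdm1b, 74.7% for Kdm1a, 72.7% for Kdm5b and 61.9% for Kdm5a. A promoter site of 2000 bp or more was present in 3 of the 6 genes. It was present in 9.86% of all 21938 coding genes, that is in 2164 of the 15530 that had a promoter site.

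**Figure D1:**
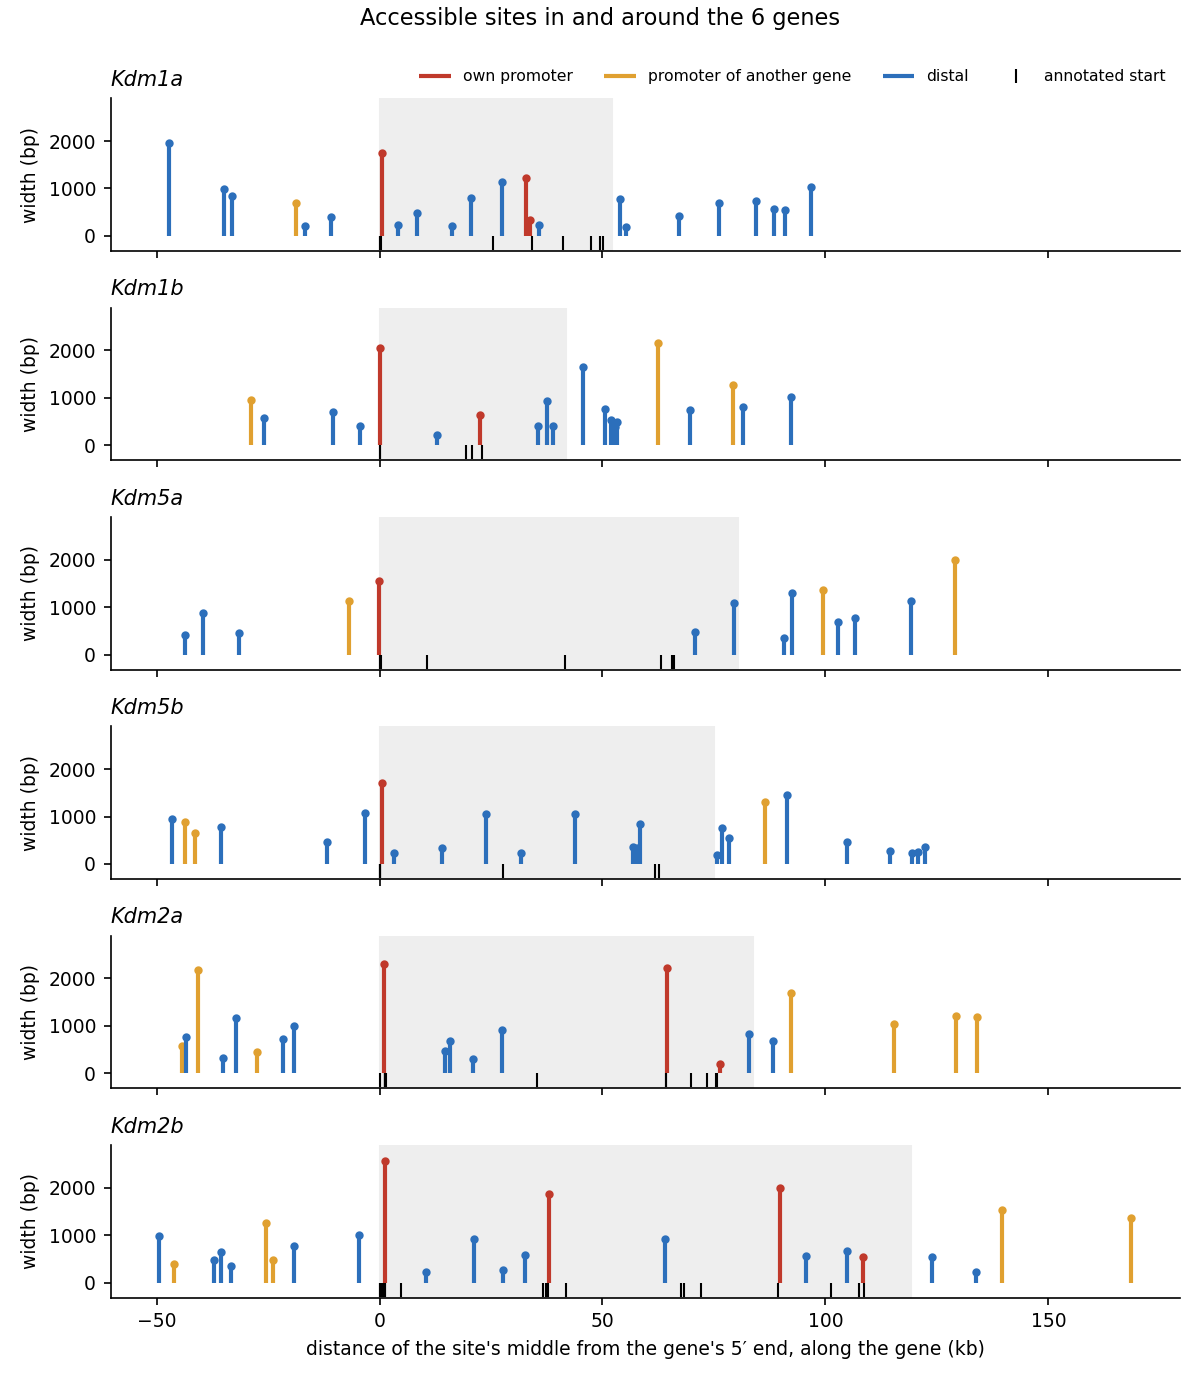
Accessible sites in the bodies (grey) of the 6 genes and 50 kb either side. The x axis gives the distance of the middle of each site from the 5′ end of the gene in kb, running along the gene, and the height of each line gives the width of the site in bp. Red lines are sites within 1 kb of a start of the gene itself, orange lines those within 1 kb of a start of another gene only, blue lines all others, and black ticks are annotated starts. Wide red lines stand inside Kdm2a and Kdm2b, and the body of Kdm5a is empty between its 5′ end and 70.7 kb.

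The Kdm1a gene lies on the minus strand at chr4:136550540-136602723, and its 5′ site at chr4:136601383-136603131 covered 3 starts. The site reached 408 bp upstream and 1340 bp downstream of the outermost start. It had 7.72 CpG per 100 bp and a GC content of 58.1%. The 150 bases without any annotated exon that lie closest upstream of the start, at chr4:136602788-136602937 on the minus strand, contained 14 CpG, shown in capitals.

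Kdm1a upstream: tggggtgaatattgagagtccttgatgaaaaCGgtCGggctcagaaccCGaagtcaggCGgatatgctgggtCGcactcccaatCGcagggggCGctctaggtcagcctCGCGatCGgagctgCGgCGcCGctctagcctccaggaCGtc

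The Kdm1b gene lies on the plus strand at chr13:47043499-47085279. Its 5′ site at chr13:47042696-47044743 also held the 5′ end of Tpmt, a thiopurine methyltransferase gene read from the opposite strand. The 5′ ends of the pair were 1238 bp apart and both genes overlap between them. The site had 6.25 CpG per 100 bp.

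A shared site was also present at Kdm5a, which lies on the plus strand at chr6:120364124-120444574. The site at chr6:120363246-120364795 held the 5′ ends of Kdm5a and of Ccdc77, which were 250 bp apart on opposite strands. It was the only 5′ site of the 6 that reached farther upstream than downstream, with 878 bp upstream and 671 bp downstream of the Kdm5a start. The upstream part lies in the body of Ccdc77. The exon-free stretch nearest to the start, at chr6:120363924-120364073 on the plus strand, held 11 CpG in 150 bases.

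Kdm5a upstream: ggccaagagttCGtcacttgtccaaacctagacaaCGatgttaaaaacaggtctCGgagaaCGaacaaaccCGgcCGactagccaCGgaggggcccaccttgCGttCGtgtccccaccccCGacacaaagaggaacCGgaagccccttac

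For Kdm5b, a plus-strand gene at chr1:134560171-134635285, the 5′ site at chr1:134559818-134561530 reached 353 bp upstream and 1359 bp downstream of the outermost start and covered 3 starts. It had 8.58 CpG per 100 bp and a GC content of 68.2%. The 150 bases directly before the start, at chr1:134560021-134560170, are shown with their 10 CpG in capitals.

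Kdm5b upstream: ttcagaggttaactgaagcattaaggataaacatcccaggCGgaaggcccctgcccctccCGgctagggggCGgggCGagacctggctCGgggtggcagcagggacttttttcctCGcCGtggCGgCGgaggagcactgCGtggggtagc

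The sites at the 5′ ends of both Kdm2 genes lay almost wholly downstream of the outermost start in GENCODE. Kdm2a is on the minus strand at chr19:4314419-4398285, and its site at chr19:4396077-4398370 reached 85 bp upstream and 2208 bp downstream. Kdm2b is on the minus strand at chr5:122870665-122989823, and its site at chr5:122987396-122989959 reached 136 bp upstream and 2427 bp downstream. By contrast, the median extent over the 12825 coding genes whose 5′ end lies in a site was 541 bp upstream and 818 bp downstream. The downstream extent exceeded that of 98.9% of these genes for Kdm2a and 99.4% for Kdm2b. This placement depended on the annotation. With the outermost RefSeq start, the Kdm2b site reached 689 bp upstream and 1874 bp downstream, beside medians of 528 and 833 bp over 12073 RefSeq coding genes. The outermost RefSeq start of Kdm2a lay 351 bp outside its site. Both sites covered several separate starts. In Kdm2a, 1 transcript began at the outermost position and 5 further start positions lay 1190 to 1368 bp downstream. In Kdm2b, 7 start positions were spread over 1290 bp, and the site also held the 5′ end of the antisense RNA A930024E05Rik. The exon-free stretch nearest to the outermost Kdm2b start, 994 bases downstream at chr5:122988680-122988829, held 2 CpG in 150 bases. An exon-free stretch of the Kdm2a site between the outermost start and the others, at chr19:4397784-4397933 on the minus strand, held 17 CpG in 150 bases.

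Kdm2a between its 5′ starts: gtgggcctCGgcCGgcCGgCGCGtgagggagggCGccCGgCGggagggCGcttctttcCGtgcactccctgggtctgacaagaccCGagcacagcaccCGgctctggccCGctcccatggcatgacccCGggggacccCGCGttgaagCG

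**Figure D2:**
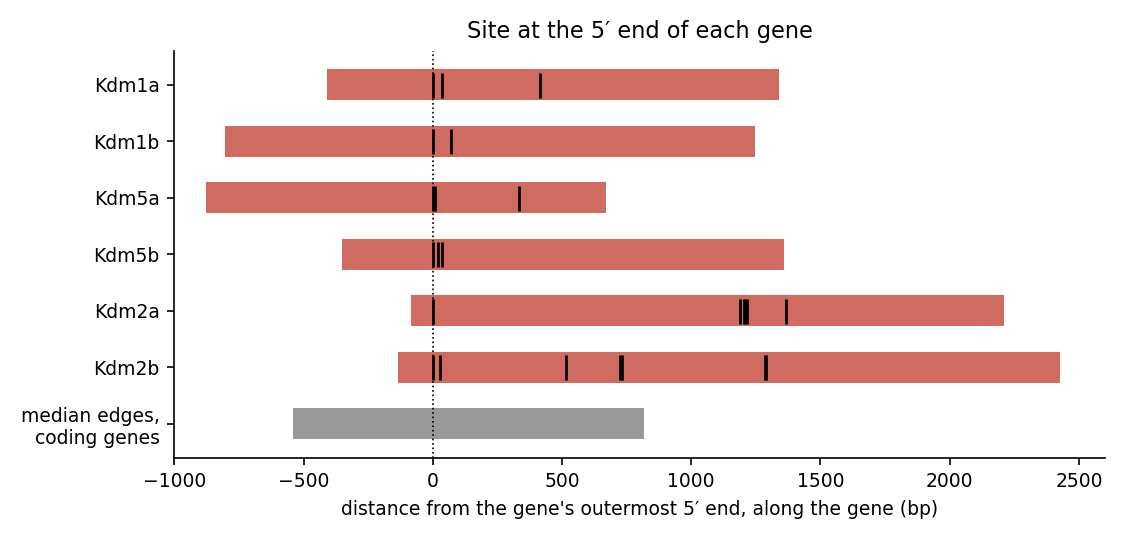
The site at the 5′ end of each gene (red bars) in bp from the outermost start, drawn along the gene, with annotated starts of the gene as black ticks. The grey bar joins the medians of the upstream and downstream extent over coding genes with a site at their 5′ end, 541 and 818 bp. The Kdm2a and Kdm2b bars extend more than 2000 bp downstream and little upstream of these GENCODE starts, which for Kdm2b changes to 689 bp upstream and 1874 bp downstream with RefSeq.

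Kdm2a and Kdm2b also carried wide sites at starts deep inside the gene. Kdm2b had such sites at 2 places. The first, at chr5:122899079-122901073, was 1995 bp wide, had 9.77 CpG per 100 bp and a GC content of 66.1% and overlapped a CpG island also under stricter criteria. It covered the start of Kdm2b-201, a coding transcript that begins 89.5 kb into the gene. This start lies in intron 12 of the longest coding form, Kdm2b-202, and 42.1% of the 3927 coding bases of that form lie upstream of it. A RefSeq transcript, NM_013910.2, starts 5 bp from it. The site was thus wider than the 5′ sites of Kdm1a, Kdm5a and Kdm5b. The RefSeq promoter table has overlapping entries of 300 bases here. That at chr5:122900301-122900600 held 49 CpG and that at chr5:122900318-122900617 held 47. These values exceeded 99.0% and 98.6% of all entries, whose median was 7. The entries at the 5′ ends held 17 CpG for Kdm5b, 26 for Kdm1b and 29 for Kdm1a, and the 2 entries at the 5′ starts of Kdm2b 18 and 28. The 150 exon-free bases that end 13 bases before this start, at chr5:122900368-122900517 on the minus strand, contained 17 CpG.

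Kdm2b upstream of the internal start: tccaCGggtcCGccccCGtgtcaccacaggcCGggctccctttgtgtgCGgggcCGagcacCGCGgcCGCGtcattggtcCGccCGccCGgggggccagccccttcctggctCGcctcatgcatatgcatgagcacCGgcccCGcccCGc

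The other internal site of Kdm2b, at chr5:122950856-122952726, was 1871 bp wide with 5.08 CpG per 100 bp, and overlapped an island under both criteria. It covered the starts of Kdm2b-214 and Kdm2b-215, 37.3 and 37.8 kb into the gene, in intron 6 of the longest form. Of the coding bases of that form 15.0% lie upstream. The annotated coding part of Kdm2b-214 is 858 bases long.

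In Kdm2a, the site at chr19:4332624-4334833 was 2210 bp wide and thus close in width to the 5′ site of the same gene. It covered the starts of Kdm2a-212 and Kdm2a-210, 64.3 and 64.4 kb into the gene. The annotated coding part of Kdm2a-212 is 876 bases long and Kdm2a-210 has none, against 2328 bases in Kdm2b-201. The nearest RefSeq start lies 138 bp from that of Kdm2a-212. As for Kdm2b-201, the starts of Kdm2a-212 and Kdm2a-210 lie in intron 12 of the longest form (Kdm2a-201, 3483 coding bases). Of the coding bases of that form, 42.5% lie upstream. The composition differed, however. The Kdm2a site had 1.76 CpG per 100 bp and a GC content of 50.6%, against 9.77 and 66.1% in Kdm2b, and it overlapped an island only under the main criteria. The exon-free stretch that ends 139 bases before the start of Kdm2a-212, at chr19:4334140-4334289 on the minus strand, contained 5 CpG in 150 bases. It can be set against the 17 CpG of the Kdm2b stretch above.

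Kdm2a upstream of the internal start: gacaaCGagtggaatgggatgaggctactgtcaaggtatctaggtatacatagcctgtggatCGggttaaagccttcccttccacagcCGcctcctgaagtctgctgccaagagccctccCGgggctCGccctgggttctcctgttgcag

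Starts more than 2 kb from the 5′ end were counted in each gene to set these sites beside the other members, a choice made after the sites had been seen. Of 36 such internal starts, 5 lay inside a site, compared with 18.9% of the 35071 internal starts of all coding genes. The 5 comprised 3 of 12 in Kdm2b and 2 of 7 in Kdm2a, and 0 of 6 in Kdm1a, 0 of 3 in Kdm1b, 0 of 5 in Kdm5a and 0 of 3 in Kdm5b. Most of the internal starts belong to transcripts annotated as retained introns or without a coding part. With RefSeq starts, which are fewer, 7 of 11 internal starts lay inside a site, beside 34.2% of the 14017 internal starts of all RefSeq coding genes. Of the 7, 6 were in the Kdm2 genes and 1 in Kdm1b. Starts that share a site were counted separately, so these starts fell into fewer sites. The Kdm2b starts at 122952633, 122951903 and 122950892 lay in the same site, and those at 122900367 and 122900350 in another. The members were thus under the share of all coding genes with GENCODE and over it with RefSeq. The difference between the families was not tested, since the number of annotated internal starts differed between the genes.

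Narrower sites lay close to internal starts of 4 genes without covering them. In Kdm1a, a 1222 bp site at chr4:136569327-136570548 and a 336 bp site at chr4:136568692-136569027 lay within 1 kb of the start of Kdm1a-207, in intron 8. Neither overlapped an island, and they had 0.82 and 0.59 CpG per 100 bp. In Kdm1b, a 637 bp site at chr13:47065815-47066451 ended next to the start of Kdm1b-202 and covered a RefSeq start at 47066362. A 205 bp site in Kdm2a at chr19:4321849-4322053 and a 548 bp site in Kdm2b at chr5:122881149-122881696 lay near starts of transcripts annotated as retained introns or as targets of nonsense-mediated decay. Counted this way, 14 of the 127 sites were promoter sites of the 6 genes, with 4 in Kdm2b, 3 each in Kdm2a and Kdm1a, 2 in Kdm1b and 1 each in Kdm5a and Kdm5b. At least 2 promoter sites were present in 4 of the 6 genes and in 21.7% of all coding genes. The members have 5 (Kdm1b) to 19 (Kdm2b) annotated start positions. They are 41781 to 119159 bp long, against a median of 17425 bp over coding genes. The share was not computed for genes of like length or number of starts.

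The other sites comprised 22 promoter sites of other genes and 91 distal sites. Promoter sites of any gene made up 36 of the 127 sites or 28.3%, beside 17.2% of the whole list. The 95% Wilson interval, 21.2 to 36.7%, holds counting error only and treats neighbouring sites as independent. Every window was placed on a gene, whereas the list also holds sites far from genes. A higher share was thus partly given by the choice of windows, and the difference was not tested. Promoter sites had a median width of 1269 bp and distal sites of 585 bp, beside 1061 and 565 bp in the whole list. The distal sites thus had about the width that distal sites have elsewhere, and they were low in CpG, with a median of 0.951 per 100 bp against 0.853 in the list. Of the 91 distal sites, 65 had their middle in an intron, 10 in an exon and 16 outside annotated genes.

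**Figure D3:**
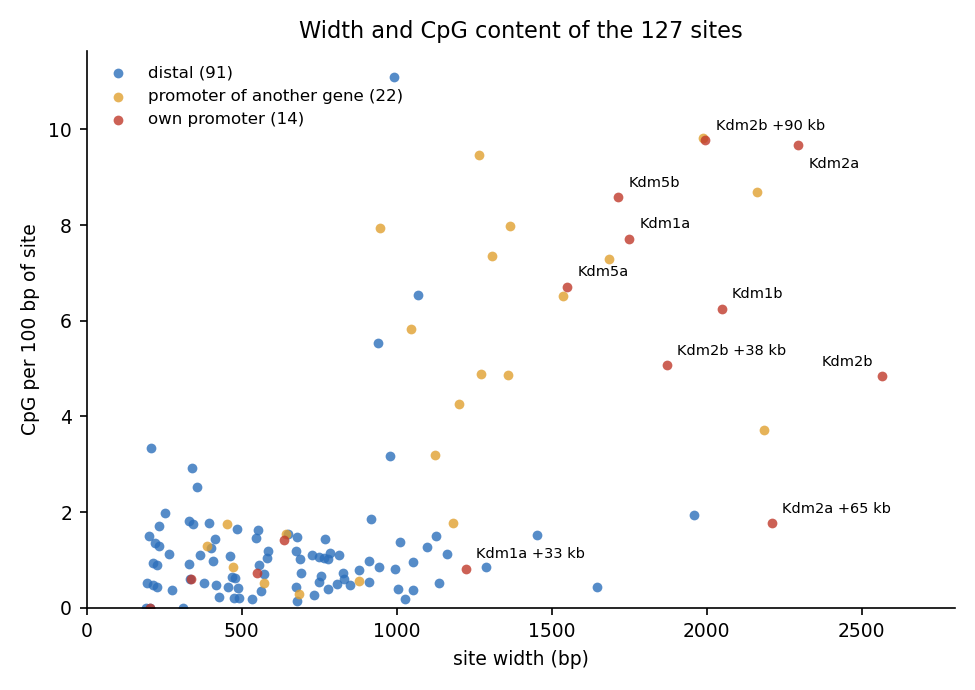
Width in bp (x axis) and CpG per 100 bp (y axis) of the 127 sites. Red points are promoter sites of the 6 genes, named from 1200 bp upward with their distance into the gene, orange points promoter sites of other genes and blue points distal sites. The 6 sites at 5′ ends have 4.84 to 9.68 CpG per 100 bp, the internal site of Kdm2a has 1.76, and a distal site at Lactbl1 has the highest value, 11.1.

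A strict CpG island (at least 500 bp) was overlapped by 4 of the 91 distal sites, compared with 1.00% of the distal sites of the list. A pair of them lay upstream of Kdm5b. The first of these, chr1:134556297-134557365, was 1069 bp wide, had 6.55 CpG per 100 bp and lay 3.3 kb upstream of the Kdm5b 5′ end, outside annotated genes. The other, chr1:134513161-134514100, was 940 bp wide with 5.53 CpG per 100 bp and lay 46.5 kb upstream. The third lay in the body of Lactbl1 with its middle in an exon, 34.9 kb upstream of Kdm1a, at chr4:136637146-136638137, and had 11.1 CpG per 100 bp, the highest value of the 127 sites. The fourth lay in an intron at Morn3, 49.4 kb upstream of Kdm2b, at chr5:123038729-123039707 and had 3.17 CpG per 100 bp.

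Over the gene bodies, the density of sites was highest in Kdm1a and lowest in Kdm5a. Per 100 kb of gene body, Kdm1a had 17.2 sites, Kdm1b 14.4, Kdm5b 11.98, Kdm2a 9.54, Kdm2b 9.23 and Kdm5a 3.73. The median coding gene had 8.91. The genes were also set beside the 5878 coding genes at least as long as the shortest member. Their median was 7.86, and the density of Kdm1a exceeded 94.9% of them, whereas that of Kdm5a exceeded 17.9%. With 50 kb either side included, the order was Kdm1a (15.1 per 100 kb), Kdm5b (14.3), Kdm1b (14.1), Kdm2a (11.4), Kdm2b (11.0) and Kdm5a (7.76), compared with a median of 8.66 over all coding genes. Kdm5a remained lowest. No spread between samples is known for these densities, so neighbours in this order cannot be told apart.

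**Figure D4:**
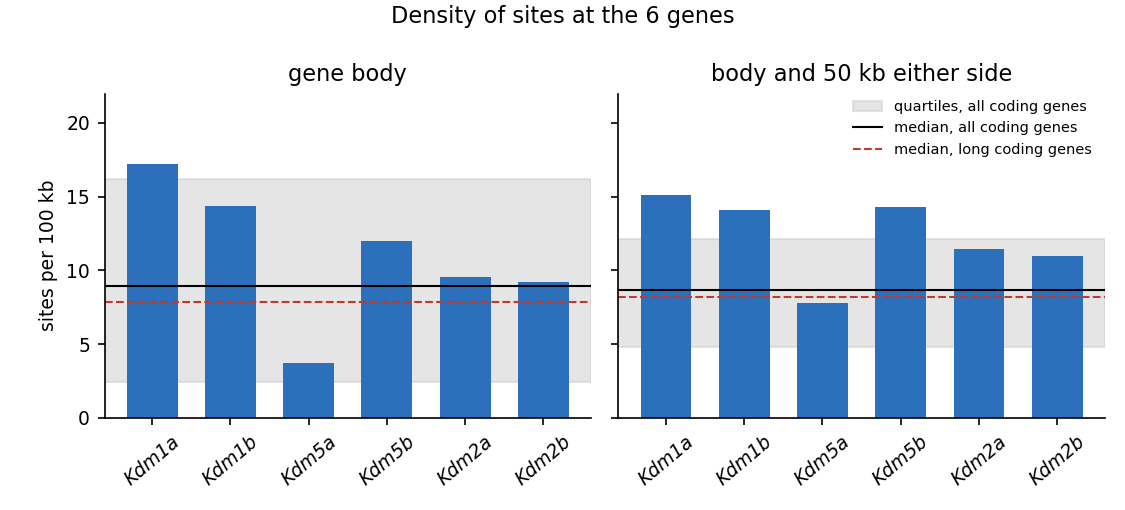
Sites per 100 kb (y axis) in the bodies of the 6 genes (left) and in the bodies with 50 kb either side (right). Grey bands give the quartiles and black lines the median of all coding genes, dashed red lines the median of the 5878 coding genes at least as long as the shortest member. Kdm5a has 3.73 sites per 100 kb in its body and is the only member under the median in both panels.

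In the Kdm5a body, no site was listed from the end of the promoter site to intron 27 of 28 exons. This stretch, chr6:120364796-120434539, measured 69744 bp, and 2.68% of all gaps between neighbouring sites were at least as long. The median gap of the list was 7154 bp. Only 2 sites followed, a 477 bp site in intron 27 at chr6:120434540-120435016, with 88.5% of its bases in repeats, and a 1098 bp site in the untranslated part of the last exon at chr6:120443162-120444259. The longest gaps around the other genes were 14883 bp (Kdm1b), 17638 bp (Kdm1a), 23084 bp (Kdm5b), 27446 bp (Kdm2b) and 35545 bp (Kdm2a).

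The paralog Kdm5b, in contrast, had 8 sites in its body beyond the 5′ site, 3 of them in intron 1 at 3.2, 14.0 and 23.8 kb. The widest of these 8 measured 1052 bp, at chr1:134583439-134584490 and at chr1:134603443-134604494 in intron 10. A group of 3 sites lay around exon 19, from chr1:134616871-134617235 to chr1:134618247-134619094. The body of Kdm1a had 6 sites outside promoter sites, the widest with 1136 bp in intron 4 at chr4:136574634-136575769. Kdm1b had 4, the widest with 942 bp in intron 20 at chr13:47080678-47081619. The widest such site was 911 bp in Kdm2a (chr19:4370379-4371289, intron 2) and 916 bp in Kdm2b (chr5:122968067-122968982, intron 4).

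Motif matches were searched in all sites on both strands. CTCF, which binds at the borders of chromatin loops, was searched with its 12-letter core. It matched in 7 of the 127 sites, or 5.51%, beside 4.49% of the whole list. The matches fell into 4 of the windows, with 3 sites at Kdm2a, 2 at Kdm2b and 1 each at Kdm1a and Kdm5a. None of the 14 promoter sites of the 6 genes held a match, beside 3.94% of the promoter sites of the list. The Kdm2b matches lay in the gene body, in introns 4 and 11, on either side of the internal site at 38.0 kb and 5′ of the one at 89.7 kb. The matches of both genes are shown with the motif in capitals and read on its own strand.

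Kdm2b intron 4, chr5:122968523-122968552: ggtgcatatCCACCAGGGGGCatccctggt
Kdm2b intron 11, chr5:122925640-122925669: atttgatggCCACTAGGGGGCacaatggcg
Kdm2a 88.2 kb downstream of the 5′ end, chr19:4310063-4310092: tcctatacaCCACTAGGTGGCagcaccacc
Kdm2a 19.1 kb upstream, chr19:4417411-4417440: ggatttcgaCCAGTAGAGGGCagcagggct
Kdm2a 35.2 kb upstream, chr19:4433431-4433460: tcagacactCCAGCAGAGGGCatcagatct

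The middle 200 bp held a match in 6 of the 127 sites or 4.72%, beside 2.84% of the list. The Kdm1a match lay in a site at chr4:136621077-136621760 within 1 kb of the start of Lactbl1, and the Kdm5a match in a site at chr6:120324083-120324962 at the 3′ end of Ccdc77. The RefSeq promoters of 300 bases held the motif in 0.557%, and promoter sites of the list in 3.94%.

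EGR proteins, zinc finger factors induced by growth signals, were searched as GCGGGGGCG and GCGTGGGCG. They matched in 4 of the 127 sites or 3.15%, beside 1.88% of the list. These were the 5′ sites of Kdm5b and Kdm2a, the Tmem121b promoter site downstream of Kdm5a and the Lactbl1 exon site upstream of Kdm1a. Within the middle 200 bp, 2 sites or 1.57% held a match, beside 0.463% of the list. In the Kdm5b site the match lay 449 bp downstream of the start, and in the Kdm2a site 893 bp. Promoter sites of the list held the motif in 9.52%, and the 32851 RefSeq promoters of 300 bases (GRCm38.p6) in 3.47%.

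Kdm5b, chr1:134560610-134560638: ggccggaggcGCGGGGGCGgggagcggtc
Kdm2a, chr19:4397374-4397402: cgggcagggaGCGGGGGCGgtaggccggc

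NRF1, an activator of many housekeeping and mitochondrial genes, was searched by a 10-letter consensus, which is rich in CpG. It matched in 4 of the 127 sites or 3.15%, against 2.10% of the list, 10.2% of its promoter sites and 6.31% of the RefSeq promoters. In the middle 200 bp, 1 site or 0.787% held a match, beside 0.569% of the list. The 5′ sites of Kdm1a, Kdm2a and Kdm2b were among the 4, and the Lactbl1 exon site was the fourth. The Kdm2a site held 4 matches, 839 to 1171 bp downstream of the outermost start and thus all before the inner group of starts, as was the EGR match. No bases were shared between the EGR and NRF1 matches of the 127 sites. The Kdm1a match lay at the start itself. The outermost and the innermost of the Kdm2a matches and that of Kdm1a are shown.

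Kdm1a, chr4:136602702-136602731: acccccgcgtGCGCACGCGCcctgcgcgct
Kdm2a, chr19:4397427-4397456: cgcgactggcGCGCAGGCGCaggcacccgg
Kdm2a, chr19:4397095-4397124: cggcctcactGCGCAGGCGCcctctcttca

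AP-1, the Fos and Jun dimer, was searched as TGAGTCA and TGACTCA. It matched in 33 of the 127 sites or 26.0%, beside 29.4% of the list and 5.20% of the RefSeq promoters. In the middle 200 bp it matched in 10 sites or 7.87%, beside 14.7% of the list. The 33 sites comprised 8 at Kdm1a, 6 each at Kdm2a and Kdm2b, 5 each at Kdm1b and Kdm5b and 3 at Kdm5a. The only 5′ site with a match was that of Kdm5b. The 1222 bp site in intron 8 of Kdm1a held 3 matches, starting at 136570135, 136570170 and 136570205. Their flanking bases were nearly identical, so they are repeats of the same stretch. A match is a description of the letters and not evidence of binding.

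Among the neighbours, most coding genes whose body reaches into the windows had a promoter site. The exceptions were Tex46 next to Kdm1a and Mgat4e next to Kdm5b. The widest promoter sites of neighbours were 3246 bp at Ephb2, a receptor tyrosine kinase gene upstream of Kdm1a, and 2259 bp at Luzp1, which overlaps the 3′ end of Kdm1a. Dek, which overlaps the 3′ end of Kdm1b, had 2162 bp, and Rnf34, at the 3′ end of Kdm2b, had 1536 bp. Of the others, Lactbl1 near Kdm1a had 684 bp, Nhlrc1 and Rnf144b near Kdm1b 945 and 1271 bp, Il17ra and Tmem121b near Kdm5a 1364 and 1987 bp, and Syt2 near Kdm5b 1307 bp. Near Kdm2a, the values were 1200 bp at Ssh3, 1047 bp at Ankrd13d, 1685 bp at Grk2 and 2184 bp at both Rhod and Syt12. Near Kdm2b they were 1358 bp at Anapc5, 1267 bp at Orai1 and 918 bp at Morn3. The sites counted for Kdm1a, Kdm1b, Kdm5a and Kdm2b therefore include some that lie in overlapping genes.

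Genes with related functions were also read from the list. For comparison, 70.8% of all coding genes had a promoter site, and 62.8% had one that overlapped a CpG island. Among partners of Kdm1a and Kdm1b, all 11 had a promoter site at an island, from 1532 bp at Hdac1, a histone deacetylase of the CoREST complex, to 3170 bp at Phf21a, which reads unmethylated H3K4. All 9 genes of the Kdm2b-containing Polycomb complex had one as well, from 861 bp at Usp7 to 2146 bp at Bcor. The same held for all 10 other genes with a CXXC zinc finger (1097 bp at Mbd1 to 3027 bp at Cxxc5) and all 10 genes of the H3K4 methyltransferase core (1258 bp at Rbbp5 to 2667 bp at Kmt2a). Kmt2a and Kmt2b belong to both of these lists. Of 19 other histone demethylases, 16 had a promoter site, from 1239 bp at Kdm4d to 2732 bp at Kdm7a. The 3 without were Kdm6b, an H3K27 demethylase with 2 sites in its body, and Kdm5d and Uty, Y-linked genes with 0 sites in their bodies. The median of the widest promoter site was 1899 bp over the 6 members, and 1565, 2118, 1633, 1877 and 1669 bp over the other demethylases, the Kdm1 partners, the Polycomb complex, the CXXC genes and the methyltransferase core.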

How the data were processed

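ATAC-seq sites of 10 libraries were analysed. The labels' extraction text describes cross-linked chromatin, whereas titles and methods describe ATAC-seq, which is followed here. According to their methods and processing notes, the authors used Trim Galore for trimming, BWA for alignment (mm10), SAMtools for filtering after ENCODE, Picard to merge replicates, MACS2 for narrow peaks, and deepTools and DESeq2 downstream. Versions, the peak threshold, any shift for the Tn5 cut, blacklisting and how sites of several samples were joined are not given in the sources used here, and each could move edges, widths and numbers. The deposited table gives only the chromosome, start and end of each pooled site, so no test between groups was run, and depth is unknown.

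Starts were read as counted from 0 and printed from 1. Genes and starts came from GENCODE M21 and RefSeq (GRCm38.p6). A site was assigned by an overlap of at least 1 bp. Islands were runs of 200 bp windows whose GC share passed 0.5 and whose CpG ratio (observed over expected) passed 0.6, with repeat bases masked. Strict islands used 500 bp, 0.55 and 0.65. Promoter entries in the RefSeq table matched 4 of the 6 genes, Kdm1a, Kdm1b, Kdm5b and Kdm2b. Named were, by rule, promoter sites of the 6 genes, the widest other site of each body, sites with CTCF or EGR matches, coding genes sharing a promoter site or reaching into the windows, and from each list the genes without a promoter site or with the widest or narrowest. Members and lists were chosen with earlier results of these data known. Site, motif and island steps were tested on simulated data. Python 3.11.15, NumPy 2.4.6, pandas 2.3.3 and Matplotlib 3.10.9 were used.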

Additional observations from a re-analysis of the deposited data

How the results depend on the processing

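No paired analysis was possible because no value of a single library was listed. All 6 genes had a promoter site, and all 6 had it at a CpG island, under each alternative tried for these counts. The number of sites moved from 127 to 74 with sites under the list's median width left out, to 84 with 25 kb either side and to 46 with bodies only. The density fell from 12.07 to 7.03 sites per 100 kb without the narrower sites, and 10056 bases per 100 kb were covered by sites. The share of promoter sites rose from 28.3% to 44.1% with 3 kb either side of a start and to 39.2% without the narrower sites. The difference in median width between promoter and other sites, 684 bp, was 391 bp with 3 kb. In the middle 200 bp, the sites with a match numbered 10 for AP-1 (7.87%, beside 14.7% of the list), 2 for EGR (1.57 and 0.463%) and 1 for NRF1 (0.787 and 0.569%). Of the 36 internal starts, 5 lay inside a site and 12 within 1 kb of a site. This distance and the RefSeq starts, used for internal starts and for the extent of the 5′ sites, were added after the data were seen. The upstream extent of the Kdm2b site moved from 136 to 689 bp with RefSeq. The other 21 alternatives set for the remaining results moved no count by over 1.5 times and no share or density beyond its counting interval. Widths rest on the edges given by the peak caller, and depth, on which weaker sites depend, is unknown.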
